A study of Mus musculus with 8 samples.

Results

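Integrins are the cell surface receptors through which cells hold on to the extracellular matrix, each made of 1 alpha and 1 beta subunit. The 9 genes described here encode integrin subunits measured in primordial germ cells (PGCs) of the mouse, from which eggs and sperm later arise: the beta subunits Itgb1, Itgb3 and Itgb5 and the alpha subunits Itga1, Itga3, Itga5, Itga6, Itga9 and Itgav. They were chosen by name, as 9 of the 19938 genes with a probe of their own on the arrays, and each was represented by 1 probe. The samples were GFP-positive PGCs sorted from the posterior part of single embryos at embryonic day 9.5, when PGCs migrate, with 1 microarray per embryo. WT embryos (Ror2+/+) numbered 4 and had 25, 25, 22 and 21 somites, while the 4 mutant embryos were Ror2Y324C/Y324C, homozygous for an amino acid change in the Wnt5a receptor Ror2, and had 24, 22 to 23, 23 and 21 to 22 somites. Their mothers were heterozygous for the mutation, and their fathers were heterozygous and carried the Oct4-ΔPE transgene on both copies, so every embryo carried the transgene that marked PGCs. The strain background was mixed, and no sex is given in the labels.

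The alpha chain largely sets which ligand an integrin binds, and the beta chain links it through talin and kindlin to actin. Itgb1 is the common partner of Itga1 (a collagen receptor), Itga3 and Itga6 (laminin receptors), Itga5 (the fibronectin receptor) and Itga9 (which binds tenascin, among other ligands). Itgav pairs with Itgb1, Itgb3 or Itgb5 to bind vitronectin, fibronectin and latent TGF-beta. Integrins that contain Itgb1 are known to be needed for mouse PGCs to reach the gonads.

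The deposited values are taken as log2 array signals. All 15 genes of the PGC marker list had means above 5.61, the median over all genes, and the mean over the list ran from 9.89 to 10.21 in WT and from 10.09 to 10.16 in mutants. WT 3 was lowest for PGC markers and had the highest mean over 14 macrophage genes (5.06, against 4.57 to 4.90 elsewhere) and over 9 primitive erythroid genes (5.54, against 4.84 to 5.31). WT 3 was also highest for the megakaryocyte and platelet list (5.15) and the trunk mesenchyme list (5.35), and WT 4 for the endothelium and hindgut lists. The SD of values over genes was smallest in WT 3 (1.77) and 1.82 to 1.95 on the other arrays. WT 3 and mutant 4 were the arrays of high Xist, the RNA of the inactive X chromosome (7.07 and 6.31, against 3.50 to 4.11).

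Itgb1, Itgb3 and Itgav gave the high signals of the set. Their means over the 8 arrays were 8.63, 7.69 and 7.41 and lay at the percentiles 91.0, 81.9 and 79.0 of all gene means. The other 6 members lay below the median of all genes: Itga3 at 5.53, Itga5 at 5.35, Itgb5 at 5.18, Itga6 at 5.05, Itga1 at 4.97 and Itga9 at 4.92, or percentiles 47.8 down to 31.9. As a scale for low signals, 1015 olfactory receptor genes, a class used by nose neurons, had a median of 3.73 and a 95th percentile of 5.28. Itgb5, Itga6, Itga1 and Itga9 lay under that 95th percentile, so their expression in these cells cannot be told apart from background. Probes differ in how strongly they hybridise, so this order ranks signals and not amounts of RNA.

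Across embryos, the values of Itga3 and Itga5 had the highest signed Pearson correlation of the 36 pairs of members and those of Itgb3 and Itgav the next, while by Spearman rank correlation Itgb1 and Itgav stood first. The upstream sequences of 3 of these genes are shown. In the RefSeq promoter table (GRCm38.p6), 7 of the 9 members had an entry, while Itgb3 and Itga6 had none. Itgb1 had an entry that is not shown here, so the motif counts below cover only a part of these pairs. Each line gives the 250 bases before the start, 5′ to 3′ on the strand of the gene, with capitals where GGGCGG (the GC box), CCAAT or TATAAA was found on either strand. The windows are chr11:95076715-95076964 (minus strand, the first of the starts listed for Itga3), chr15:103366792-103367041 (minus strand, Itga5) and chr2:83724147-83724396 (plus strand, Itgav).
Itga3: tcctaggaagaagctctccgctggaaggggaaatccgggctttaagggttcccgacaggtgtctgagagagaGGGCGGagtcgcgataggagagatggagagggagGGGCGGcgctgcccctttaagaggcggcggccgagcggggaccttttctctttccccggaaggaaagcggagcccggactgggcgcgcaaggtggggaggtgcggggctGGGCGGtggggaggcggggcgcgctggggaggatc
Itga5: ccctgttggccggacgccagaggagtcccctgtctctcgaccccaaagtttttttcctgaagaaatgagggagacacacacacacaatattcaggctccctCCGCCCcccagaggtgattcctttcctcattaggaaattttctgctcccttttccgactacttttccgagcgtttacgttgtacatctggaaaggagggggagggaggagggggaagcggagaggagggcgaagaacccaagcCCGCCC
Itgav: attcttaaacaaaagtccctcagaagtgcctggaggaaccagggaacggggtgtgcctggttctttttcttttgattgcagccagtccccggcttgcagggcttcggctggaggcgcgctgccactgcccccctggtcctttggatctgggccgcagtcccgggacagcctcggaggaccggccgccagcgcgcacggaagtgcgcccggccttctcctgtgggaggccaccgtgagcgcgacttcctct
GGGCGG occurred 3 times in the Itga3 window, 2 times in that of Itga5 and 0 times in that of Itgav, and 32.7% of 32851 windows of this length in the table held it. CCAAT and TATAAA, held by 33.8% and 12.4% of windows, were found in none of the 3. The GC content was 67.6%, 55.6% and 64.4%.

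The first comparison asked whether integrin transcripts differ between mutant and WT PGCs. Itga1, a low signal, was lower in mutants by 0.66 on the log2 scale and differed most of the 9, while the other 8 differed by less than 0.25 in either direction. No member passed the limma test over all genes, where 0 of 19938 genes (0%) had an adjusted p under 0.05. At an unadjusted p under 0.05, 1 of the 9 members was called, where 4.68% of all genes were. Of the 9, 3 had a difference above 0 and the median was -0.12, beside 8902 of 19938 genes above 0 and a median of -0.02. The difference varied with level: its median was 0.04 among genes of above-median level, where 3 of the 9 members lie. The counts over all genes are thus not a background of like level. For 0 of the 9 did all mutant values lie on 1 side of all WT values, which 2.52% of all genes did.

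**Figure D1:**
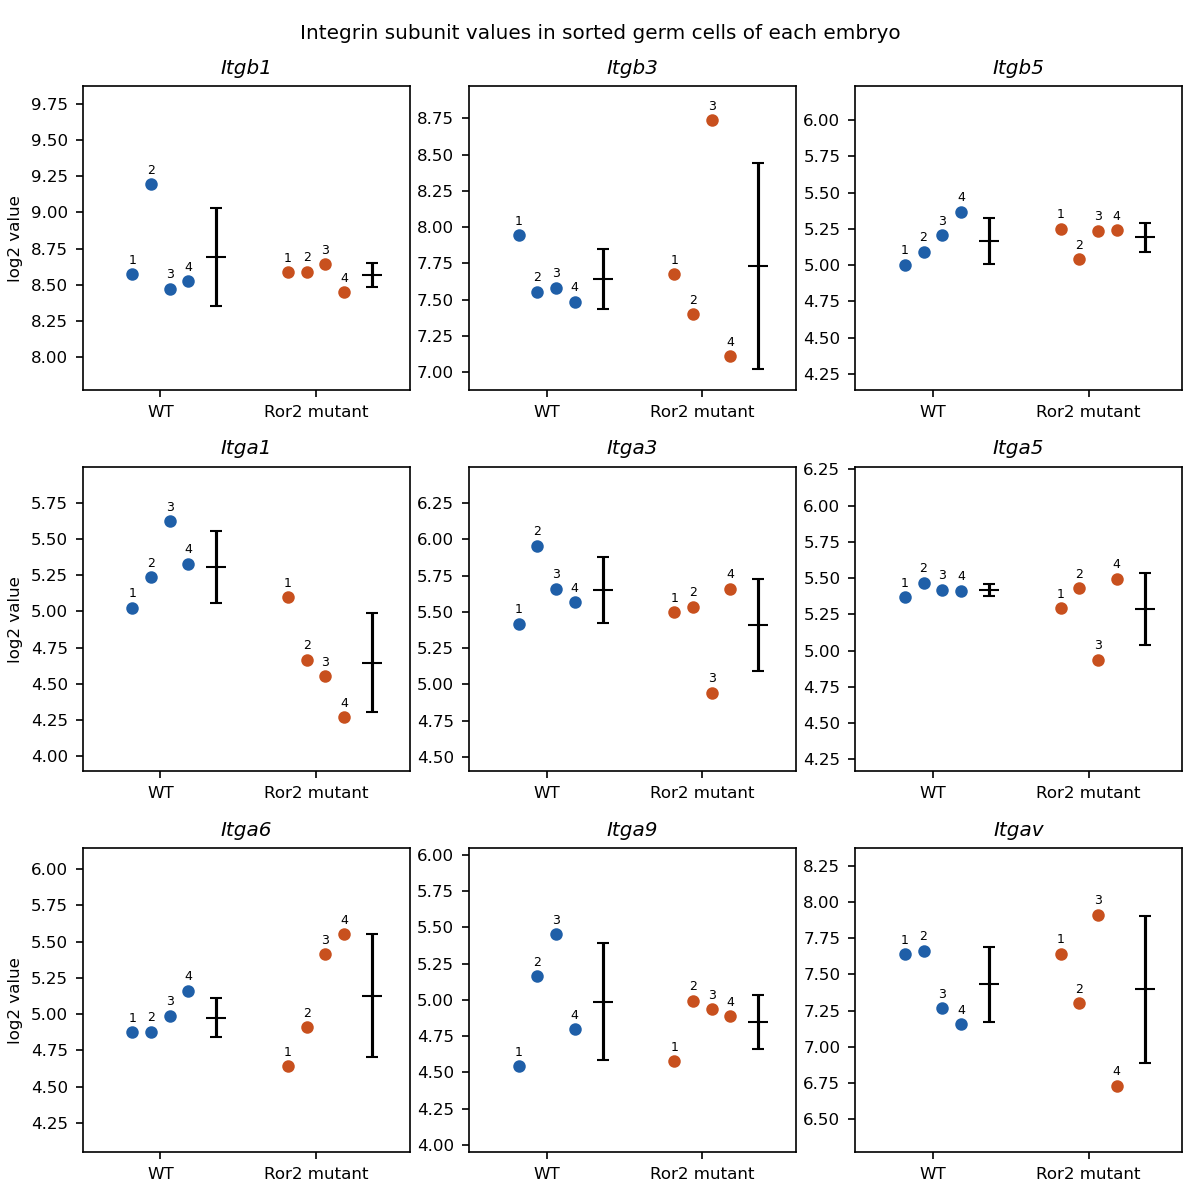
Log2 value of each integrin subunit (vertical axis, panels of equal span) in WT (blue) and Ror2 mutant (orange) embryos, numbered by replicate, with the group mean and SD as black bars (4 embryos each). Groups overlap in all 9 panels, Itga1 overlaps only through mutant 1 and WT 1, and mutant 3 stands highest for Itgb3 and Itgav and lowest for Itga3 and Itga5.

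Itgb1, the shared beta chain, was at 8.57, 9.20, 8.47 and 8.53 in WT 1 to 4 and at 8.59, 8.59, 8.64 and 8.45 in mutants 1 to 4. WT 2 stood above the other 7 arrays, which lay within 8.45 to 8.64. The difference was -0.12 ± 0.17 (SE), with a 95% interval from -0.50 to 0.26 and a limma adjusted p of 0.977 (0.785 to 0.9999 over the alternatives). Without WT 2 the difference was 0.04. As a fold, the interval ran from 0.705 to 1.19.

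Itgb3, a beta chain of the vitronectin receptor, was at 7.94, 7.55, 7.58 and 7.48 in WT and at 7.68, 7.40, 8.74 and 7.11 in mutants. Both the highest and the lowest value came from mutant embryos, mutants 3 and 4. The SD was 0.71 in mutants and 0.21 in WT, and the SD over all 8 arrays (0.49) lay at the percentile 91.7 of all genes. The difference was 0.09 ± 0.30 (SE, interval -0.58 to 0.76) with all arrays and -0.25 without mutant 3. Itgb5, another partner of Itgav, had the smallest spread of the 9 signals, with values from 5.003 to 5.37 in WT and from 5.04 to 5.25 in mutants. Its SD over all arrays (0.12) lay at the percentile 5.83, which at a signal not told apart from background does not show a steady level of the transcript. Its difference was 0.03 ± 0.13 (interval -0.26 to 0.31).

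Itgav, the alpha chain shared by both, was at 7.64, 7.66, 7.27 and 7.16 in WT and at 7.64, 7.30, 7.91 and 6.73 in mutants. Again mutant 3 was highest and mutant 4 lowest of the 8 arrays. The difference was -0.03 ± 0.24 (SE, interval -0.57 to 0.50). Its sign turned after median centring (0.00056), and its value was -0.21 without mutant 3 and 0.19 without mutant 4.

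Itga1, which with Itgb1 forms a collagen receptor, was at 5.03, 5.24, 5.62 and 5.33 in WT and at 5.10, 4.67, 4.55 and 4.27 in mutants. Mutants 2, 3 and 4 lay below every WT embryo, while mutant 1 lay above WT 1 alone. The mean was 5.30 ± 0.25 in WT and 4.65 ± 0.34 in mutants (SD, n = 4 each). The difference of -0.66 ± 0.19 (SE, interval -1.09 to -0.23) had an unadjusted limma p of 0.00649 and an adjusted p of 0.973. The mutant mean and the mean over all arrays lay under the 95th percentile of the olfactory receptor genes (5.28), and the WT mean lay just above it. This is thus a difference between signals at or near background, and no fold is given. Of all genes, 1.96% were lower at an unadjusted p under 0.05. Itga1 was not among the genes of above-median level. Over the other alternatives the unadjusted limma p ran from 0.00139 to 0.0484 and the adjusted p from 0.530 to 0.9999. Leaving out 1 array at a time moved the difference between -0.81 (without mutant 1) and -0.53 (without mutant 4). Itga1 and Ror2 both lie on chromosome 13 in RefSeq, which does not show that they lie close together. Their distance was not taken, and the part of linkage in this difference was not tested.

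Itga1 was highest in WT 3, the array of smallest SD over genes (1.77). WT 3 was also highest for the macrophage, primitive erythroid, megakaryocyte and platelet, and trunk mesenchyme lists. The same held for the integrin ligands and the 18 other integrin subunits (5.26), while WT 4 was highest for endothelium and hindgut. Its difference was -0.55 without WT 3 and -0.43 without WT 3 and mutant 4 together. Means over the marker lists of possible other cells overlapped between groups: 10 trunk mesenchyme genes gave 4.93 to 5.35 in WT and 5.08 to 5.24 in mutants, 10 endothelium genes 5.25 to 5.44 and 5.35 to 5.39, and 11 hindgut genes 6.16 to 6.73 and 6.23 to 6.70. The 14 macrophage genes gave 4.66 to 5.06 in WT and 4.57 to 4.82 in mutants, the 9 primitive erythroid genes 4.84 to 5.54 and 4.90 to 5.09, and 4 genes of megakaryocytes and platelets 4.69 to 5.15 and 4.79 to 4.99. Of the primitive erythroid genes 0 of 9 had a difference above 0 (median -0.24), and of the macrophage genes 2 of 14 (-0.14). The counts were 1 of 4 for megakaryocytes and platelets and 7 of 10 for trunk mesenchyme. For endothelium and hindgut they were 5 of 10 and 5 of 11. Beside these, 8902 of 19938 genes lay above 0 (median -0.02). Among genes of above-median level the median was 0.04, and only 3 of the 9 primitive erythroid and 3 of the 14 macrophage genes lay there. These lists thus differ from all genes in level as well. The part of these cells in the difference of Itga1 was not tested. In sorted cells, fewer cells that express a gene and less RNA per cell cannot be told apart.

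Itga3, the alpha chain of a laminin receptor, was at 5.42, 5.96, 5.66 and 5.57 in WT and at 5.50, 5.54, 4.94 and 5.66 in mutants. Mutant 3 was the low value, and the other mutants lay within the range of WT. The difference was -0.24 ± 0.18 (SE, interval -0.65 to 0.17) and -0.09 without mutant 3. Itga5, the alpha chain of the fibronectin receptor, was nearly level in WT, at 5.37, 5.47, 5.42 and 5.41, and at 5.29, 5.43, 4.94 and 5.50 in mutants. Its signal was near the 95th percentile of the olfactory receptor genes (5.28), so its spread in WT does not show a steady level of the transcript. Here too mutant 3 was lowest, and the difference of -0.13 ± 0.15 (interval -0.45 to 0.19) was -0.01 without it.

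Itga6, the alpha chain of another laminin receptor, was at 4.88, 4.88, 4.99 and 5.16 in WT and at 4.64, 4.91, 5.41 and 5.55 in mutants. The mutants reached both below and above the WT range. The difference was 0.15 ± 0.20 (SE, interval -0.29 to 0.60) and 0.01 without mutant 4. Itga9 was at 4.54, 5.16, 5.46 and 4.80 in WT and at 4.58, 4.99, 4.94 and 4.89 in mutants, with WT 3 highest. Its difference was -0.14 ± 0.20 (interval -0.58 to 0.30) and 0.02 without WT 3. Neither the signal of Itga6 nor that of Itga9 can be told apart from background.

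**Figure D2:**
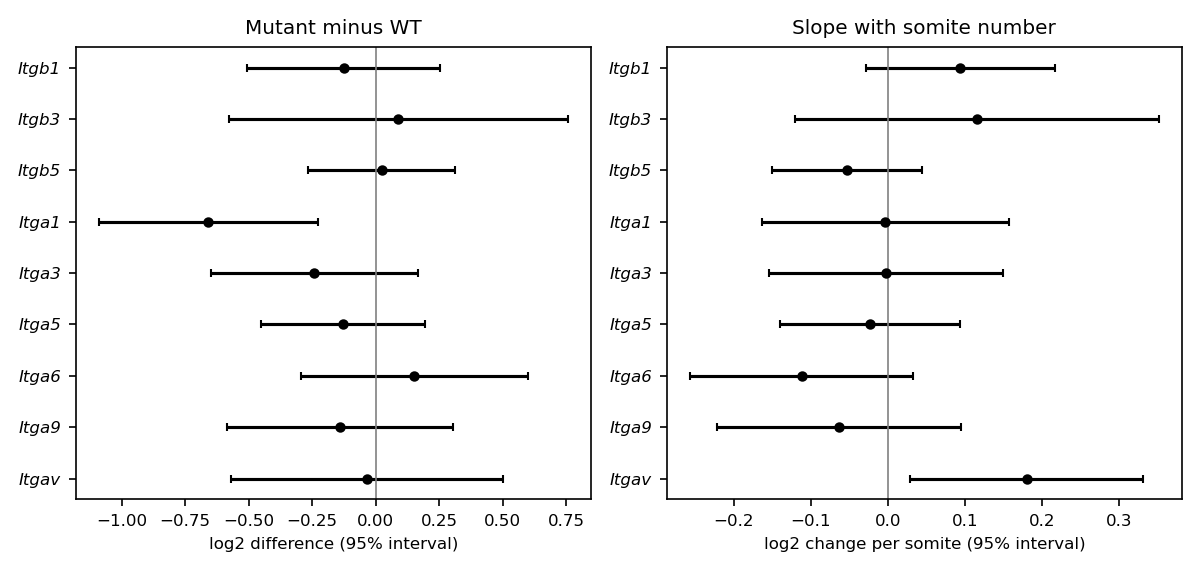
Left, log2 difference of mutant minus WT, and right, log2 change per somite with genotype in the model, for the 9 subunits; points are limma estimates and bars 95% intervals not adjusted for the number of genes. On the left only the interval of Itga1 (-1.09 to -0.23) lies wholly on 1 side of 0, and on the right only that of Itgav (0.03 to 0.33).

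The second comparison asked whether the subunits change with stage, read from the somite number. Itgav had the steepest positive slope of the 9, at 0.18 ± 0.07 log2 per somite (SE, interval 0.03 to 0.33). Its unadjusted limma p was 0.0244 and its adjusted p 0.478 (0.421 to 0.9998 over the alternatives). In WT, the embryos of 25 somites had 7.64 and 7.66 and those of 22 and 21 somites 7.27 and 7.16. In mutants the value was 7.64 at 24 somites, 7.91 at 23, 7.30 at 22 to 23 and 6.73 at 21 to 22. The unadjusted limma p ran from 0.0129 to 0.294 over the alternatives. It was above 0.05 after quantile normalization (slope 0.13, p 0.0626), without mutant 4 (0.13, 0.0555), without WT 3 and mutant 4 (0.13, 0.0877) and with the replicate block. At an unadjusted p under 0.05, 1 of the 9 members was called, where 9.74% of all genes were (5.02% with a positive slope). After adjustment 0 of 19938 genes (0%) passed. Slopes leaned upward at higher signals. Among the 9969 genes of above-median level, where Itgav, Itgb1 and Itgb3 lie, 800 positive and 246 negative slopes had an unadjusted p under 0.05. The median slope was 0.02 there and -0.02 over all genes.

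Itgb3 (0.12 ± 0.11 per somite, SE) and Itgb1 (0.09 ± 0.05) also had slopes above 0 whose intervals included 0. The slope of Itgb1 was 0.03 without WT 2. Itga6, whose signal cannot be told apart from background, had the steepest negative slope, -0.11 ± 0.06 (interval -0.26 to 0.03, unadjusted limma p 0.115). With the replicate block this slope was 0.14. In WT the value of Itga6 was 4.88 in both embryos of 25 somites and 4.99 and 5.16 in those of 22 and 21. In mutants it was 4.64 at 24 somites and 5.55 at 21 to 22, with mutant 3 (5.41 at 23 somites) off this order. Itga9 (-0.06 ± 0.07), Itgb5 (-0.05 ± 0.04), Itga5 (-0.02 ± 0.05), Itga1 (-0.003 ± 0.07) and Itga3 (-0.003 ± 0.07) had intervals that included 0. The slopes of Itga1, Itga3 and Itga5 turned above 0 after quantile normalization or median centring. Median centring moved the median slope of all genes from -0.02 to 0.01.

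**Figure D3:**
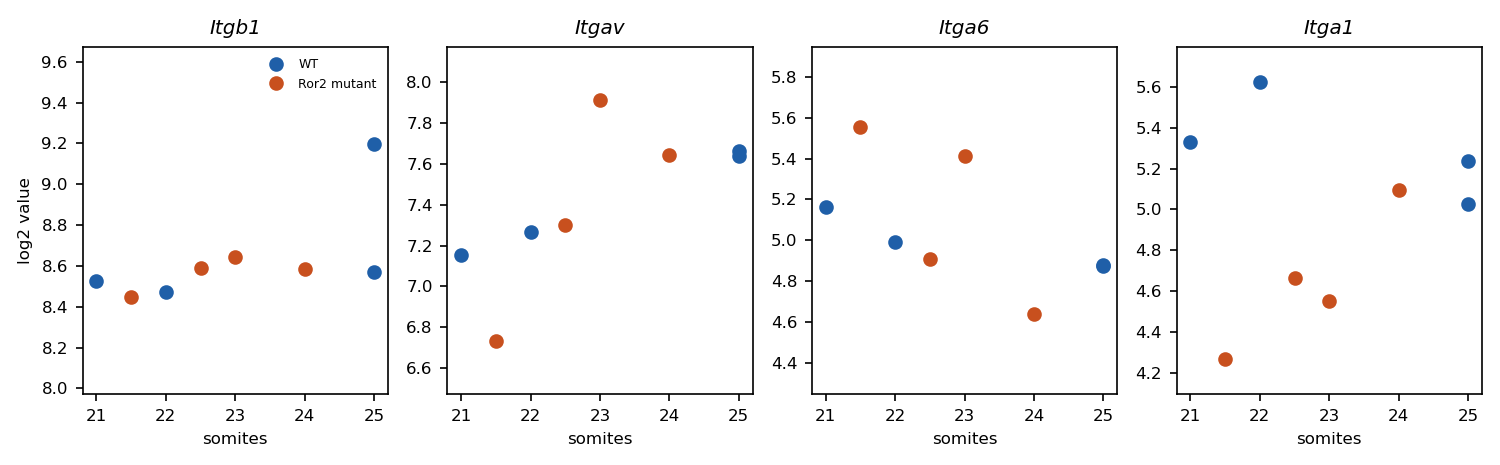
Log2 value (vertical axis, panels of equal span) against somite number (the midpoint where a range is given) for Itgb1, Itgav, Itga6 and Itga1 in WT (blue) and Ror2 mutant (orange) embryos. Itgav is lowest at 21.5 somites (6.73), Itga6 is highest there (5.55), and the mutant values of Itga1 run from 4.27 at 21.5 somites to 5.10 at 24 while WT values lie between 5.03 and 5.62. The signals of Itga6 and Itga1 cannot be told apart from background.

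The slope was also compared between genotypes with an interaction term. For Itga1 the slope was 0.31 log2 per somite within mutants and -0.08 within WT, a difference of 0.39 ± 0.13 (SE, interval 0.09 to 0.69). Its unadjusted limma p was 0.0159 and its adjusted p 0.999. Mutant values of Itga1 thus stood furthest below WT in the youngest mutant and within the WT range in the oldest, and the difference between slopes rests on 4 embryos per genotype. It was 0.30 without mutant 1 and 0.41 without mutant 4, with unadjusted limma p-values of 0.191 and 0.0961, and 0.37 without WT 3 and mutant 4 (0.105). Its adjusted p ran from 0.769 to 0.9999 over the alternatives. The remaining 8 members had intervals that included 0, from -0.25 ± 0.15 for Itga6 to 0.27 ± 0.15 for Itgav. At an unadjusted p under 0.05, 1 of the 9 was called, beside 4.52% of all genes, and 0% passed after adjustment. Without mutant 1, the difference was 0.63 for Itgav and 0.91 for Itgb3, from 0.27 and 0.26 with all arrays.

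Members also varied with each other over the embryos. Itgb3 and Itgav, which form 1 receptor, had a Pearson r of 0.82 over the 8 arrays (exact permutation p = 0.0160, two-sided, 0.192 after adjustment over the 36 pairs) and a Spearman rho of 0.74 (exact permutation p = 0.0458, adjusted 0.412). The r was 0.84 without mutant 3 and 0.63 without mutants 3 and 4, and 0.83 after taking each genotype's mean from its values. Of all other genes, 0.787% had an r with Itgb3 at least as high.

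Itgb1 and Itgav, which also pair, had the highest rho of the 36 pairs, 0.88 (exact permutation p = 0.00724, two-sided, adjusted 0.193). Their r was 0.49 (exact permutation p = 0.201, adjusted 0.896) with all arrays, WT 2 being far out for Itgb1, and 0.78 without WT 2 and mutant 4.

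Itga3 and Itga5, both partners of Itgb1, had an r of 0.90 (exact permutation p = 0.00558, two-sided, adjusted 0.1004) and a rho of 0.81 (exact permutation p = 0.0218, adjusted 0.261). The r was 0.63 without mutant 3 and 0.68 without WT 2 and mutant 3, and 0.88 with genotype means taken away. Both signals were near the 95th percentile of the olfactory receptor genes (5.28), and mutant 3 lay under it for both, at 4.94. Shared changes in background and in transcripts cannot be told apart at such signals. Of all other genes, 0.166% had an r with Itga5 at least as high as that of Itga3.

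Itgb3 ran opposite to Itga5, with an r of -0.94 (exact permutation p = 0.00494, two-sided, adjusted 0.1004) and a rho of -0.86 (exact permutation p = 0.0107, adjusted 0.193). The r was -0.70 without mutant 3 and -0.53 without mutants 3 and 4, and it was -0.98 with genotype means taken away. The limit of a signal near background holds for Itga5 here too. None of the 36 pairs passed after adjustment, and the 8 arrays share scaling and amplification steps. Mutant 3 held the highest Itgb3 and Itgav and the lowest Itga3 and Itga5. Mutant 4 held the lowest Itgb3 and Itgav and the highest Itga5.

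**Figure D4:**
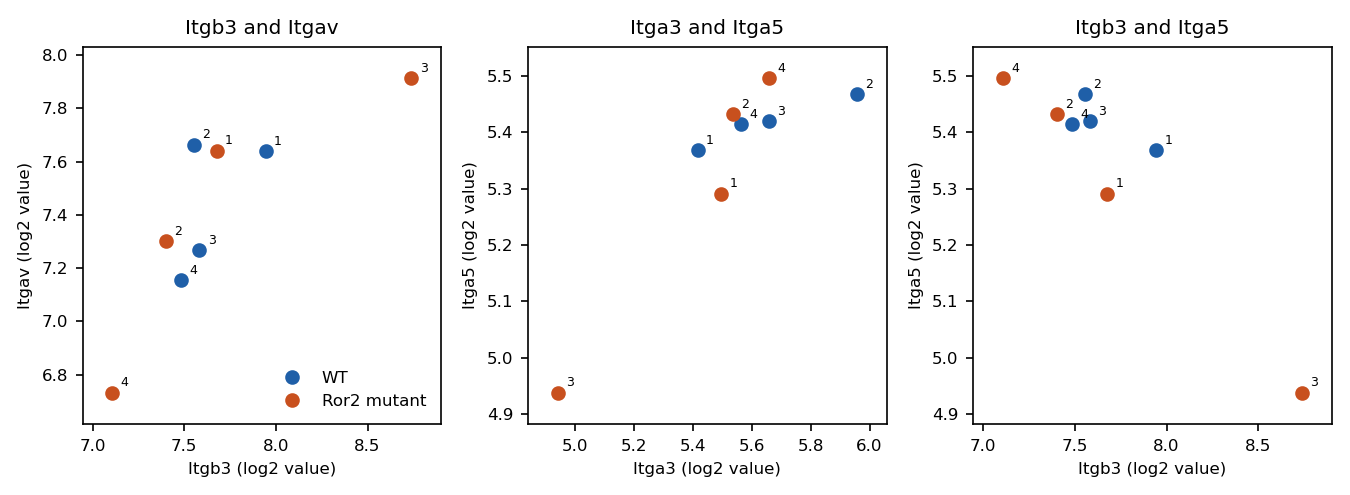
Log2 values of 2 subunits plotted against each other for the 8 embryos (WT blue, Ror2 mutant orange, numbered by replicate). Itgb3 and Itgav lie along a rising line (r = 0.82), as do Itga3 and Itga5 (0.90), and Itgb3 and Itga5 along a falling one (-0.94), with mutant 3 at the far end in each panel.

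The genes whose values were most like those of Itgb1, among 9604 of above-median level with predicted genes and Itgb1 itself left out, were Gng13 (r = 0.95), Ankrd46 (0.95), Pcmtd1 (0.95), Gabpb1 (0.95) and Brpf1 (0.92). These are descriptions over 8 arrays, with WT 2 far above the rest. Without WT 2, r was 0.92 for Pcmtd1 and 0.84 for Ankrd46, and 0.53 to 0.66 for the other 3.

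The other integrin subunits served for comparison, 18 genes of which 2 had means above the median gene. Itgb8, a partner of Itgav, was at 5.87 ± 0.20 in WT and 6.13 ± 0.25 in mutants (SD, n = 4 each), a difference of 0.26 ± 0.16 (SE, interval -0.10 to 0.62). It was 0.37 without mutant 4 (unadjusted limma p 0.0406), 0.44 without WT 3 and mutant 4 (0.0219) and 0.17 without mutant 2. Itga2b, the alpha chain that joins Itgb3 on platelets, was at 5.69 over all arrays and differed by -0.18 ± 0.18, or by -0.34 without mutant 4 (unadjusted limma p 0.0446) and -0.09 without mutant 3. The leukocyte subunits Itgam, Itgb2 and Itga4 had means of 4.41, 5.03 and 4.42 and differed by -0.08 ± 0.15, -0.05 ± 0.14 and 0.01 ± 0.17. In mutant 3, where Itgb3 was at 8.74, Itga2b was at 5.34, its lowest value. Of the 18, 2 had a difference above 0, with a median of -0.10, beside 8902 of 19938 genes and a median of -0.02. Among genes of above-median level, where 2 of the 18 lay, the median was 0.04. For mutant against WT 0 of the 18 had an unadjusted p under 0.05, beside 4.68% of all genes. For the somite slope 3 of the 18 lay above 0, beside 8070 of 19938 genes. The median slope was 0.02 among genes of above-median level and -0.02 over all genes, so this share is not one of like level. At an unadjusted p under 0.05 there was 1 negative slope (4.72% of all genes). It was that of Itga7, the alpha chain of a laminin receptor of muscle, named after its values were seen, at -0.15 ± 0.05 per somite (unadjusted limma p 0.0117, adjusted 0.450).

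Proteins that bind the beta tail or connect it to actin form the adhesion complex, and 39 of its 40 listed genes were measured. Of these, 35 had means above the median gene, 22 had a difference above 0, and their median was 0.04. Among all genes 8902 of 19938 lay above 0, and the median was 0.04 for those of above-median level. None passed the limma test after adjustment, and at an unadjusted p under 0.05 there were 1 higher and 1 lower (2.72% and 1.96% of all genes). Lims1 (PINCH1), an adaptor that binds integrin-linked kinase, was at 8.37, 8.25, 8.30 and 8.07 in WT and at 7.86, 7.81, 7.85 and 7.76 in mutants. All mutants lay below all WT embryos, and the difference was -0.43 ± 0.12 (SE, unadjusted limma p 0.00520, adjusted 0.973, or 0.544 to 0.9999 over the alternatives). Git1, a scaffold protein at adhesions, was at 7.14, 6.81, 7.05 and 7.04 in WT and at 7.57, 7.21, 7.28 and 7.32 in mutants. All mutants lay above all WT embryos, and the difference was 0.33 ± 0.14 (unadjusted limma p 0.0332, adjusted 0.973, or 0.568 to 0.9999). Lims1 and Git1 were the 2 of the 39 whose groups did not overlap (2.52% of all genes), and both were named for their small p. The unadjusted limma p of Git1 was 0.0906 after quantile normalization and 0.0814 with a trended prior, it ran up to 0.106 (without mutant 1, where the difference was 0.26), and it was also above 0.05 without WT 2 (0.0984), without WT 4 (0.0527), without mutant 4 (0.0506) and without WT 3 and mutant 4 (0.0616). Zyx (zyxin), a protein of mature adhesions, differed by -0.34 ± 0.18, and by -0.17 without WT 2. With somite number, 2 of the 39 had a positive and 2 a negative slope at an unadjusted p under 0.05 (5.02% and 4.72% of all genes). Fermt2 (kindlin-2), which activates integrins, had a slope of 0.17 ± 0.07 per somite, and Lims2 and Parva, both partners of integrin-linked kinase, had slopes of -0.15 ± 0.05 and -0.16 ± 0.07. The unadjusted limma p of these 3 slopes lay between 0.0166 and 0.0385, and the adjusted p between 0.471 and 0.496 (at lowest 0.373, for Parva without mutant 1). Among other alternatives, the unadjusted limma p was above 0.05 for Fermt2 after quantile normalization (0.101) and for Parva after median centring (0.0664), and without WT 1 it was so for all 3 (0.0731 to 0.112).

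Ligands of these integrins were measured in the same cells for 20 of 22 listed genes. For mutant against WT 8 of 20 had a difference above 0 and the median was -0.06, beside 8902 of 19938 genes and -0.02. At an unadjusted p under 0.05 there were 0 of the 20, beside 4.68% of all genes. Fn1 (fibronectin), bound by Itga5 and Itgav receptors, was at 10.24 ± 0.13 in WT and 10.48 ± 0.17 in mutants (SD, n = 4 each) and differed by 0.24 ± 0.14 (SE). Lamc1, a chain of most laminins, differed by 0.23 ± 0.17, and Col4a2, a chain of type IV collagen, by -0.20 ± 0.16. Leaving out 1 array moved Lamc1 between 0.12 (without WT 4) and 0.36 (without WT 1) and Col4a2 between -0.32 (without WT 1) and -0.10 (without WT 3). With somite number, 1 of the 20 had a positive and 2 a negative slope at an unadjusted p under 0.05 (5.02% and 4.72% of all genes), and 0 passed after adjustment. Tgfb1, whose latent form is bound by Itgav receptors, was at 7.67, 6.40, 5.92 and 5.51 in WT and at 6.48, 6.53, 6.22 and 5.54 in mutants. The value was highest in WT 1 (25 somites) and lowest in WT 4 (21 somites), with a slope of 0.37 ± 0.09 per somite (unadjusted limma p 0.00281, adjusted 0.384, or 0.318 to 0.9998 over the alternatives) that was 0.24 without WT 1. Lama5 and Col1a1 had slopes of -0.12 ± 0.04 and -0.11 ± 0.05.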

How the data were processed

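The table deposited by the authors holds 35557 probes on 8 arrays, with values that were taken as log2 from their range. The authors' background correction and normalization were not given in any source used here. Array medians ran from 5.37 to 5.58, and the values were used as deposited. Per the labels' protocols, RNA was isolated on micro columns and amplified with a NuGEN system before labelling with biotin.

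Probes with 1 symbol in the platform's annotation (21789) were kept, and the probe of highest mean stood for a gene. The tests used limma's lmFit and eBayes (version 3.58.1, R 4.3.3) with Benjamini-Hochberg adjustment over all 19938 genes at 0.05. Models held genotype alone, somite number with genotype, or their interaction, and the midpoint stood for a somite range. Intervals cover 95%. Correlations were tested by exact permutation of pairings. Data were simulated for mutant against WT over 19938 genes, with 200 changed genes and log2 changes of 0.5, 1, 1.5 or 2. There the tests found 78.8% of changes of 1 and 8.4% of those of 0.5. The adjusted cutoff depends on how many genes change, and 0 genes passed in the deposited data. The chance of finding a change in a single member was therefore not measured by this simulation. The number of arrays limits the precision.

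Members and lists were chosen with earlier results of these data known. All 9 members were named. The lists gave the 3 genes of smallest p per comparison, other subunits those above the median level plus Itgam, Itgb2, Itga2b and Itga4, and Itgb1 its 5 genes of highest r. List genes without a single-gene probe were not analysed here. Alternatives were other normalizations, probe and level rules, priors, array weights, covariates, a replicate block, and arrays left out.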

Additional observations from a re-analysis of the deposited data

Results flagged for a closer look

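In groups of 4, a value was marked when its gap to the nearest other, as a share of the range, exceeded Dixon's critical value for 95% confidence, which chance gives in about 1 of 20 groups, or 3.9 of the 78 groups examined, and 6 were marked. Among members, Itgb1 in WT 2 was at 9.20 with the next WT value at 8.57, and Itgb5 in mutant 2 was at 5.04 with the next mutant value at 5.24. Ror2 was also apart in WT 2, at 7.38 against 7.76. The leukocyte subunit Itgb2 was at 5.19 in mutant 4, against 4.96. Xist was at 7.07 in WT 3, against 3.92. The mean over endothelium genes was 5.35 in mutant 1, against 5.39. Itgb3 in mutant 3 (8.74), though far from the other mutants, did not pass this limit.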

How the results depend on the processing

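No member passed the adjusted threshold in any of the alternatives run. Of 441 alternative values for the 27 member results, 396 kept their direction and 45 turned. Against WT, the Itgav difference was 0.00056 after median centring, 0.032 with array weights, 0.057 with the somite covariate and 0.13 without WT 3 and mutant 4, where Itga9 was 0.0028 and Itga4 -0.025. Itgb5 was -0.0015 and Itga4 -0.026 with the somite covariate, Itga4 was -0.024 with array weights, and Itgb2 was 0.0068 after quantile normalization. The somite slopes of Itga1, Itga3 and Itga5 were 0.036, 0.033 and 0.013 after quantile normalization and 0.026, 0.026 and 0.0058 after median centring. Those of Itga1 and Itga3 were 0.0034 and 0.024 with array weights and 0.037 and 0.012 with no genotype term. Itga1 was 0.0071 at the lower end of somite ranges, and Itga3 0.00997 at the upper end and 0.033 without WT 3 and mutant 4. The slope difference between genotypes was 0.044 for Itgb1 with array weights, and -0.060 for Itgb3 and 0.027 for Itga3 without WT 3 and mutant 4. The cause of these changes was not tested.

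With 1 array left out, differences against WT ran from -0.20 to 0.044 for Itgb1, -0.25 to 0.30 for Itgb3, -0.029 to 0.092 for Itgb5, -0.29 to 0.015 for Itga9, -0.21 to 0.19 for Itgav, -0.076 to 0.16 for Itga4, -0.17 to 0.015 for Itgam and -0.15 to 0.0019 for Itgb2. Slopes ran from -0.058 to 0.050 for Itga1, -0.064 to 0.042 for Itga3 and -0.17 to 0.0016 for Itga9. Slope differences ran from -0.13 to 0.041 for Itgb1, -0.057 to 0.91 for Itgb3, -0.45 to 0.033 for Itga3 and -0.24 to 0.093 for Itga9.

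Over all genes, the somite slope called 0 genes as deposited, 1 with the upper end of somite ranges, 5 without WT 3 and mutant 4, and 0 to 2 with 1 array left out, none of them a member. At an unadjusted p under 0.05, mutant against WT had 934 genes and 1715 without WT 1, with 543 higher and 391 lower as deposited and 611 and 325 after median centring. The somite slope had 1000 positive and 942 negative genes, and 1526 and 420 after median centring. Among the 9969 genes of above-median level these counts were 538 for mutant against WT, 1046 for the somite slope and 546 for the interaction, with fewer genes tested.

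Replicate numbers showed no sign of pairing the arrays, as correlations of same-numbered deviations ran from -0.19 to 0.10. These correlations cannot exclude that same-numbered embryos were handled together. With a replicate block the somite slope had 675 genes at an unadjusted p under 0.05, against 1942, that of Itga6 was 0.14 and that of Lims2 3.83e-05. Those of Tgfb1, Fermt2 and Parva were 0.11, 0.037 and -0.063, and 0 of the member slopes had an unadjusted limma p under 0.05 (0.294 for Itgav). Differences between genotypes cannot change in size under this balanced block; the unadjusted limma p of Itga1 was 0.0154.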
